A study of Mus musculus with 16 samples.

Results

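The transcription factors that set and hold the mast cell lineage were followed in bone marrow derived mast cells (BMMCs). The set was chosen by name and held 10 genes of the 39179 in the count tables, namely Gata1, Gata2, Tal1, Lmo2, Runx1, Spi1, Cebpa, Zfpm1, Ikzf1 and Hes1, and the rule used no measured value. Earlier results of these data were known when the set was chosen. RNA-seq was carried out on 16 samples in 8 conditions with 2 replicates each. The cells were grown for 4 weeks with stem cell factor and IL3 from the marrow of male C57BL/6 mice aged 8 to 10 weeks, either wild-type (PEP+/+) or null for the phosphatase PEP (PEP-/-), which is encoded by Ptpn22. All cells, the controls included, were sensitized with IgE at 0.05 µg/ml for 3 h. IgE cells received nothing further. IgE DNP cells were activated with the antigen dinitrophenol (DNP) at 200 ng/ml for 1 h. IgE DEX cells were given 100 nM of the glucocorticoid dexamethasone (DEX) for 8 h, and IgE DNP DEX cells received both. The labels number 1 replicate of each condition and letter the other, and do not say whether the 2 came from separate mice or cultures, so p-values measure the spread between these samples only.

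GATA1 and GATA2 are zinc finger proteins that bind GATA sites, and in blood progenitors they work in a complex with the basic helix-loop-helix protein TAL1, the bridging protein LMO2 and LDB1. FOG1, the product of Zfpm1, binds GATA1 and helps it switch genes on or off. RUNX1 and the ETS factor PU.1 (Spi1) act across myeloid lineages, C/EBPα (Cebpa) favours granulocytes and basophils over mast cells, Ikaros (Ikzf1) organises chromatin in lymphoid and myeloid cells, and HES1 is the repressor through which Notch signals act.

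The samples held 8612531 to 22143526 reads on genes, and all 10 factors passed the filter on low counts. Levels are given as CPM, read counts scaled to the library total of the tested genes, with that total adjusted between samples by TMM. Ptpn22 lay between 11.3 and 175 CPM in the 8 PEP+/+ samples and between 0 and 3.03 CPM in the 8 PEP-/- samples. The 20 mast cell genes checked, led by the carboxypeptidase gene Cpa3, summed to 78818 to 123860 CPM, which went with the label. The 4 basophil genes summed to 2470.8 to 4889.5 CPM and the 5 megakaryocyte genes to 1939.8 to 3921 CPM, most of it from the integrin gene Itga2b, which is in both lists (1939 to 3919 CPM). The basophil protease gene Mcpt8 was at 8.03 to 62.8 CPM, and Pf4 of megakaryocytes at no more than 0.189 CPM. The 9 erythroid genes summed to 28.2 to 152 CPM, led by Tfrc. Of the other cell types, the 10 macrophage and monocyte genes summed to 28.8 to 101 CPM. Among these C1qa was at 0, Cd68 at 8.74 to 43.3 CPM and Ccr2 at 0.937 to 68.4 CPM. The 10 neutrophil genes summed to 2.00 to 4.46 CPM and the 5 dendritic cell genes to 1.82 to 20.1 CPM. The 6 fibroblast and stroma genes summed to 1.27 to 34.8 CPM, nearly all of it from Cxcl12, with the other 5 at most 0.113 CPM each. The 4 eosinophil genes summed to at most 0.521 CPM and the 7 T, B and NK cell genes to at most 3.52 CPM. The numbered and lettered samples differed in 8463 of the 13305 genes tested when the sets were entered as a term. The same fit with sets as a term, called the replicate block, is therefore given wherever it changed a call of a factor. For the gene lists it is given as counts.

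Per exon length, the 2 strongest factors were a GATA protein and its helix-loop-helix partner. Gata2 (chr6:88193891-88207032, plus strand, GRCm38) averaged 182 ± 21.8 CPM per kilobase of annotated exon (SD, n = 16). Tal1 (chr4:115056426-115071755, plus strand) followed at 120 ± 20.4, and Gata1 (chrX:7959260-7978071, minus strand) at 59.0 ± 14.8. Gata2 was above Tal1 in 16 of 16 samples although their ranges overlapped, and the ranges of Tal1 and Gata1 did not overlap. The ratio of Gata2 to Gata1 on this scale ran from 2.04 to 5.67 between samples, both GATA genes being expressed at once. The middle of the order was less sharply set. Spi1 (chr2:91082390-91115756, plus strand) averaged 45.3 ± 12.3 and was below Gata1 in 11 of 16 samples. Ikzf1 (chr11:11685003-11772926, plus strand) averaged 28.7 ± 8.63 and was below Spi1 in 13 of 16 samples, so neither Gata1 and Spi1 nor Spi1 and Ikzf1 were apart in every sample.

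The other 5 factors were expressed at lower levels per length. Runx1 (chr16:92601466-92826149, minus strand) averaged 13.8 ± 4.87 CPM per kilobase (SD, n = 16) and Hes1 (chr16:30064384-30067796, plus strand) 9.78 ± 2.27, with Runx1 the higher in 10 of 16 samples. The place of Runx1 depends on its annotated exon length of 12025 bases, the longest of the factors. In CPM its median was 167, above Ikzf1 (155), Gata1 (144) and Spi1 (110). Zfpm1 (chr8:122282141-122337251, plus strand) averaged 6.57 ± 2.24 and Lmo2 (chr2:103957986-103981878, plus strand) 5.18 ± 1.50, with Zfpm1 the higher in 11 of 16 samples. Lmo2, the bridge of the GATA-TAL1 complex, was thus far below the factors it joins. Cebpa (chr7:35119293-35121928, plus strand) came last at 0.538 ± 0.433, from 3 to 43 reads a sample. The granulocyte factor was close to the lower end of what this depth measures. Its treatment differences had standard errors of 0.79 to 1.02 on the log2 scale, and of 0.41 to 0.44 with the replicate block.

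**Figure D1:**
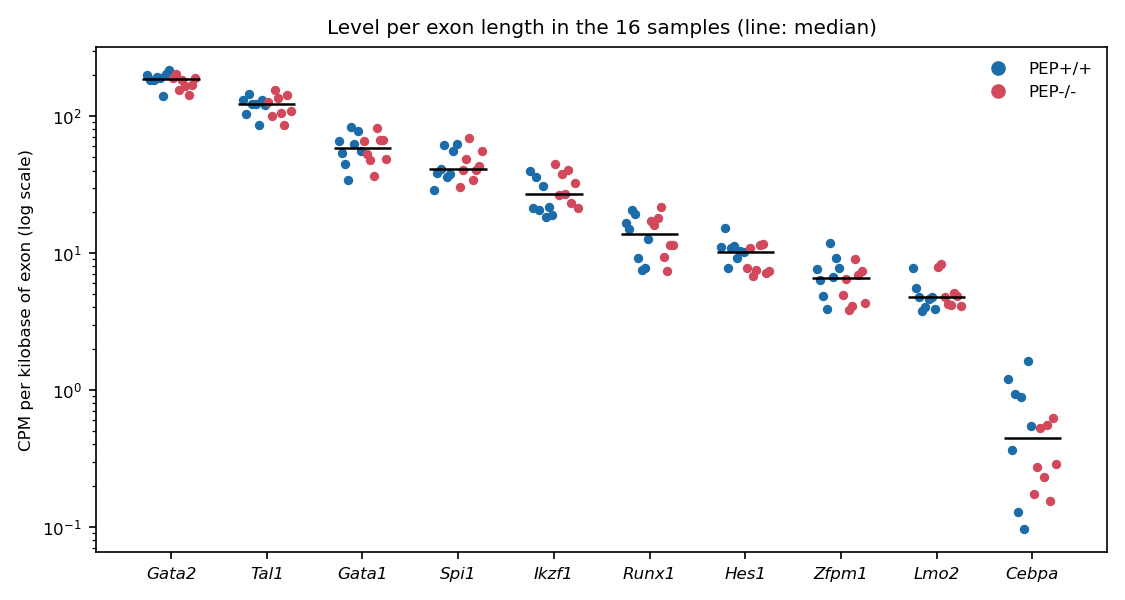
Level of each factor per kilobase of annotated exon (CPM per kilobase, log axis) in the 16 samples, ordered by mean; each point is 1 sample, colours give the genotype and lines the median. Gata2 and Tal1 lead, with means of 182 and 120, and Cebpa is last at 0.538.

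In the main test Runx1 was the only factor called for DEX both in resting and in activated cells, and it was lower with DEX in both. With the replicate block Gata1 was also called in both, higher with DEX. In IgE cells Runx1 was at 200 and 181 CPM in PEP+/+ and at 207 and 194 CPM in PEP-/- samples. In IgE DEX cells it was at 111 and 90.3 CPM in PEP+/+ and at 112 and 89.4 CPM in PEP-/- samples. All 4 DEX samples were below all 4 IgE samples, and the genotypes interleaved. Runx1 fell by 0.96 on the log2 scale (SE 0.16, 0.515-fold, edgeR quasi-likelihood test, adjusted p = 0.00331). After DNP the same direction was seen. Runx1 was at 248 and 233 CPM in PEP+/+ and at 215 and 262 CPM in PEP-/- IgE DNP samples, against 93.1 and 152 CPM and then 138 and 138 CPM in the IgE DNP DEX samples. Again no DEX sample reached the lowest sample without DEX. Runx1 fell by 0.88 (SE 0.16, 0.544-fold, adjusted p = 0.00554). DNP itself gave Runx1 +0.29 (SE 0.16, adjusted p = 0.284) without DEX and +0.37 (SE 0.16, adjusted p = 0.169) under DEX, neither of which passed the test. Without PEP+/+ IgE DNP DEX replicate 1, in which Runx1 was lowest, the difference for DNP under DEX was +0.55 and passed (adjusted p = 0.0297). Both DEX calls held in all 22 alternative fits. The exons of Runx1 overlap the antisense transcript Gm26626 over 106 bases, and Gm26626 had 0 to 16 reads a sample.

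RefSeq gives Runx1 a distal and a proximal start on GRCm38, and their windows from 250 bases before to 50 bases after the start are shown because Runx1 was the factor that DEX lowered in both states. They were searched on both strands for GATA sites (spelled AGATAA, otherwise AGATAG, alternatively TGATAA or else with the letters TGATAG), RUNX sites (spelled TGTGGT or else with the letters TGCGGT) and the half-site of the glucocorticoid receptor (AGAACA), and matches are in capitals, those on the other strand as their complement read along the gene. The distal window (chr16:92826025-92826324, minus strand) held 2 RUNX matches, 28 and 36 bases after the start, and the proximal window (chr16:92697280-92697579, minus strand) held none of the 3 motifs.
Runx1 distal: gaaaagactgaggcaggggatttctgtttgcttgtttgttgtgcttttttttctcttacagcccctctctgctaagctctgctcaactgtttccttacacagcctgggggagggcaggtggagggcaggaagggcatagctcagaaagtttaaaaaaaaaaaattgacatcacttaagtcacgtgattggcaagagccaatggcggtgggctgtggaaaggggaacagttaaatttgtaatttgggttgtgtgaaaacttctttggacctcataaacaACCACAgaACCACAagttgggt
Runx1 proximal: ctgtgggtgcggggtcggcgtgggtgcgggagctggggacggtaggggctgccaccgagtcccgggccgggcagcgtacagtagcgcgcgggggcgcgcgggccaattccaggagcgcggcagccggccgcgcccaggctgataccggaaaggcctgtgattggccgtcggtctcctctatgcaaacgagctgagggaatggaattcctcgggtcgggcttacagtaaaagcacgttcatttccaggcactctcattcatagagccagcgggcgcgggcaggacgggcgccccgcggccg
Of all 32851 such windows in the RefSeq table, 22.4% held a RUNX match, 29.8% a GATA match and 19.0% the half-site, so a match in a window is common.

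Lmo2 was highest in cells that had only IgE and lower in every treated condition. In IgE cells Lmo2 was at 17.0 and 12.1 CPM in PEP+/+ and at 17.1 and 18.2 CPM in PEP-/- samples. It was at 10.4 and 8.21 CPM, and at 10.3 and 9.25 CPM, in the corresponding IgE DNP samples. In IgE DEX samples it was at 8.73 and 9.93 CPM, and at 8.97 and 11.1 CPM. No sample with DNP or with DEX overlapped the IgE samples. Lmo2 fell by 0.75 with DNP (SE 0.17, 0.596-fold, adjusted p = 0.0115) and by 0.73 with DEX (SE 0.17, 0.604-fold, adjusted p = 0.0202). Both comparisons share the IgE samples as controls. With both agents Lmo2 was at 10.4, 8.43, 10.6 and 8.94 CPM, which was not below either agent alone. Adding DNP to DEX gave -0.01 (SE 0.17, adjusted p = 0.977) and adding DEX to DNP gave +0.01 (SE 0.17, adjusted p = 0.991). The test of whether the DNP effect differed with DEX gave a difference of +0.73 (SE 0.24, edgeR adjusted p = 0.814), which did not pass. With DNP, mean Lmo2 went from 14.5 to 9.31 CPM in wild-type cells, and the PEP-/- means were 17.6 and 9.75 CPM. Both Lmo2 calls held with the replicate block (adjusted p = 0.00079 for DNP and 0.00126 for DEX). With 1 sample left out, the Lmo2 difference stayed between -0.86 and -0.61 for DNP and between -0.84 and -0.59 for DEX, but the adjusted p crossed the threshold in several of these fits. Without PEP+/+ IgE replicate 1 the adjusted p was 0.0565 for DNP and 0.0985 for DEX. The DNP call was also lost without PEP+/+ IgE DNP replicate 2 (adjusted p = 0.0503) and without PEP-/- IgE DNP replicate 2 (0.0553). The DEX call was also lost without PEP+/+ IgE DEX replicate 1 or 2 (adjusted p = 0.0839 and 0.0542), without PEP-/- IgE replicate 1 or 2 (0.0571 and 0.0727) and without PEP-/- IgE DEX replicate 1 (0.0984). With no filter on low counts both calls were lost (adjusted p = 0.0516 for DNP and 0.0901 for DEX), and the DEX call was lost with only the compared groups fitted (0.0722).

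In the main test Spi1 was the factor that rose with DNP. In IgE cells Spi1 was at 77.6 and 103 CPM in PEP+/+ and at 81.5 and 109 CPM in PEP-/- samples. After DNP it was at 111 and 164 CPM, and at 131 and 188 CPM. The highest IgE sample lay just under the lowest DNP sample, and in each condition the lettered sample was the higher. Spi1 rose by 0.67 (SE 0.18, 1.60-fold, adjusted p = 0.0279). Under DEX it went from 97.5, 102, 92.3 and 108 CPM to 150, 170, 117 and 151 CPM with DNP, again without overlap. This difference of 0.55 (SE 0.18, 1.46-fold) had an adjusted p of 0.0780, and of 0.000619 with the replicate block. DEX gave Spi1 +0.11 (SE 0.18, adjusted p = 0.879) in resting and -0.02 (SE 0.18, adjusted p = 0.971) in activated cells. Spi1 is also a defining gene of macrophages. The 10 macrophage and monocyte genes summed to 39.2 to 55.0 CPM in PEP+/+ IgE and 43.0 to 47.9 CPM in PEP+/+ IgE DNP samples, and to 56.9 to 101 and 65.9 to 93.5 CPM in the PEP-/- samples, with 0 of the 5 tested passing for DNP and 1 falling with the block. Of these genes 4 stayed below 1 CPM in every sample, and Csf1r, which defines macrophages, was at most 1.05 CPM. Others were higher over the 16 samples, with Cd68 at 8.74 to 43.3 CPM and Ccr2 at 0.937 to 68.4 CPM. The part of macrophages in the Spi1 rise was not tested. With 1 sample left out the Spi1 difference for DNP stayed between 0.51 and 0.79, and the call held with the block (adjusted p = 8.12e-05). It was lost without PEP+/+ IgE replicate 1 (adjusted p = 0.104), PEP+/+ IgE DNP replicate 2 (0.125), PEP-/- IgE replicate 1 (0.104) or PEP-/- IgE DNP replicate 2 (0.137), and with only the compared groups fitted (0.0914).

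Gata1 and its cofactor gene Zfpm1 showed the same pattern of means, lowest with DNP and highest with DEX. Gata1 was at 160 and 132 CPM in PEP+/+ IgE samples and at 159 and 130 CPM in PEP-/- IgE samples. It was at 110 and 82.6 CPM, and at 117 and 88.5 CPM, after DNP. It was at 203 and 152 CPM, and at 200 and 163 CPM, with DEX. The DNP samples were below all IgE samples, whereas DEX and IgE samples overlapped. With both agents Gata1 was at 189 and 135 CPM in PEP+/+ and at 162 and 119 CPM in PEP-/- samples, all above the 4 IgE DNP samples. No Gata1 difference passed in the main test. It gave -0.55 (SE 0.19, 0.684-fold, adjusted p = 0.0696) for DNP alone and +0.60 (SE 0.19, 1.52-fold, adjusted p = 0.0642) for DEX in activated cells. DESeq2 called Gata1 in both (adjusted p = 0.0404 and 0.0253), as did a minimum of 10 counts in every sample (0.0427 and 0.0417), and with no filter on low counts DEX in activated cells was called (0.0358). All 4 treatment differences of Gata1 passed with the replicate block, with adjusted p = 8.07e-05 for DNP without DEX, 0.0216 for DNP under DEX, 0.0117 for DEX without DNP and 5.99e-05 for DEX with DNP. The numbered sample was above the lettered one in 8 of 8 conditions for Gata1, by 0.38 on the log2 scale.

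Zfpm1 was at 26.7 and 22.3 CPM in PEP+/+ IgE samples and at 17.3 and 22.7 CPM in PEP-/- IgE samples. After DNP it was at 16.9 and 13.6 CPM, and at 13.5 and 14.3 CPM, all below the IgE samples. With DNP and DEX it was at 32.0 and 27.4 CPM, and at 25.8 and 15.0 CPM, the last of these falling among the IgE DNP samples. Zfpm1 gave -0.60 (SE 0.23, 0.658-fold, adjusted p = 0.101) for DNP alone and +0.76 (SE 0.23, 1.69-fold, adjusted p = 0.0562) for DEX in activated cells, neither passing. Both differences of Zfpm1 passed with the block, with adjusted p = 0.0104 and 0.00421. Across the 16 samples the log2 CPM of Gata1 and Zfpm1 had a Pearson r of 0.864, given as a description, since the samples share conditions and replicate sets.

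The promoter windows of these 2 genes are shown because the genes had the same pattern of means. They are chrX:7967861-7968160 (minus strand) for Gata1 and chr8:122281891-122282190 (plus strand) for Zfpm1, from RefSeq on GRCm38, of the same length and searched for the same motifs as those of Runx1.
Gata1: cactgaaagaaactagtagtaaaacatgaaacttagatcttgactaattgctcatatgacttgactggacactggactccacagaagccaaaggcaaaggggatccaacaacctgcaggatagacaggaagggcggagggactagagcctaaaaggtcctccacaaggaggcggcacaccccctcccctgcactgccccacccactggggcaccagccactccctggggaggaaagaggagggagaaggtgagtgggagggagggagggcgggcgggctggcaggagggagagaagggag
Zfpm1: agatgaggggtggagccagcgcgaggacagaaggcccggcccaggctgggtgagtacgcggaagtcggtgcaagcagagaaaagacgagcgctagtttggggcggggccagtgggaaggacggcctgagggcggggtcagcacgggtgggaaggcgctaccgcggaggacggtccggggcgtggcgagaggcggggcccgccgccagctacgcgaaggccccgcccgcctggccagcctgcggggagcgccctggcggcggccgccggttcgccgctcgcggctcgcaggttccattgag
Neither window held a GATA, RUNX or half-site match. The Gata1 window held 1 ETS core (GAGGAA), 22 bases before the start, a motif that 28.3% of all windows held.

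**Figure D2:**
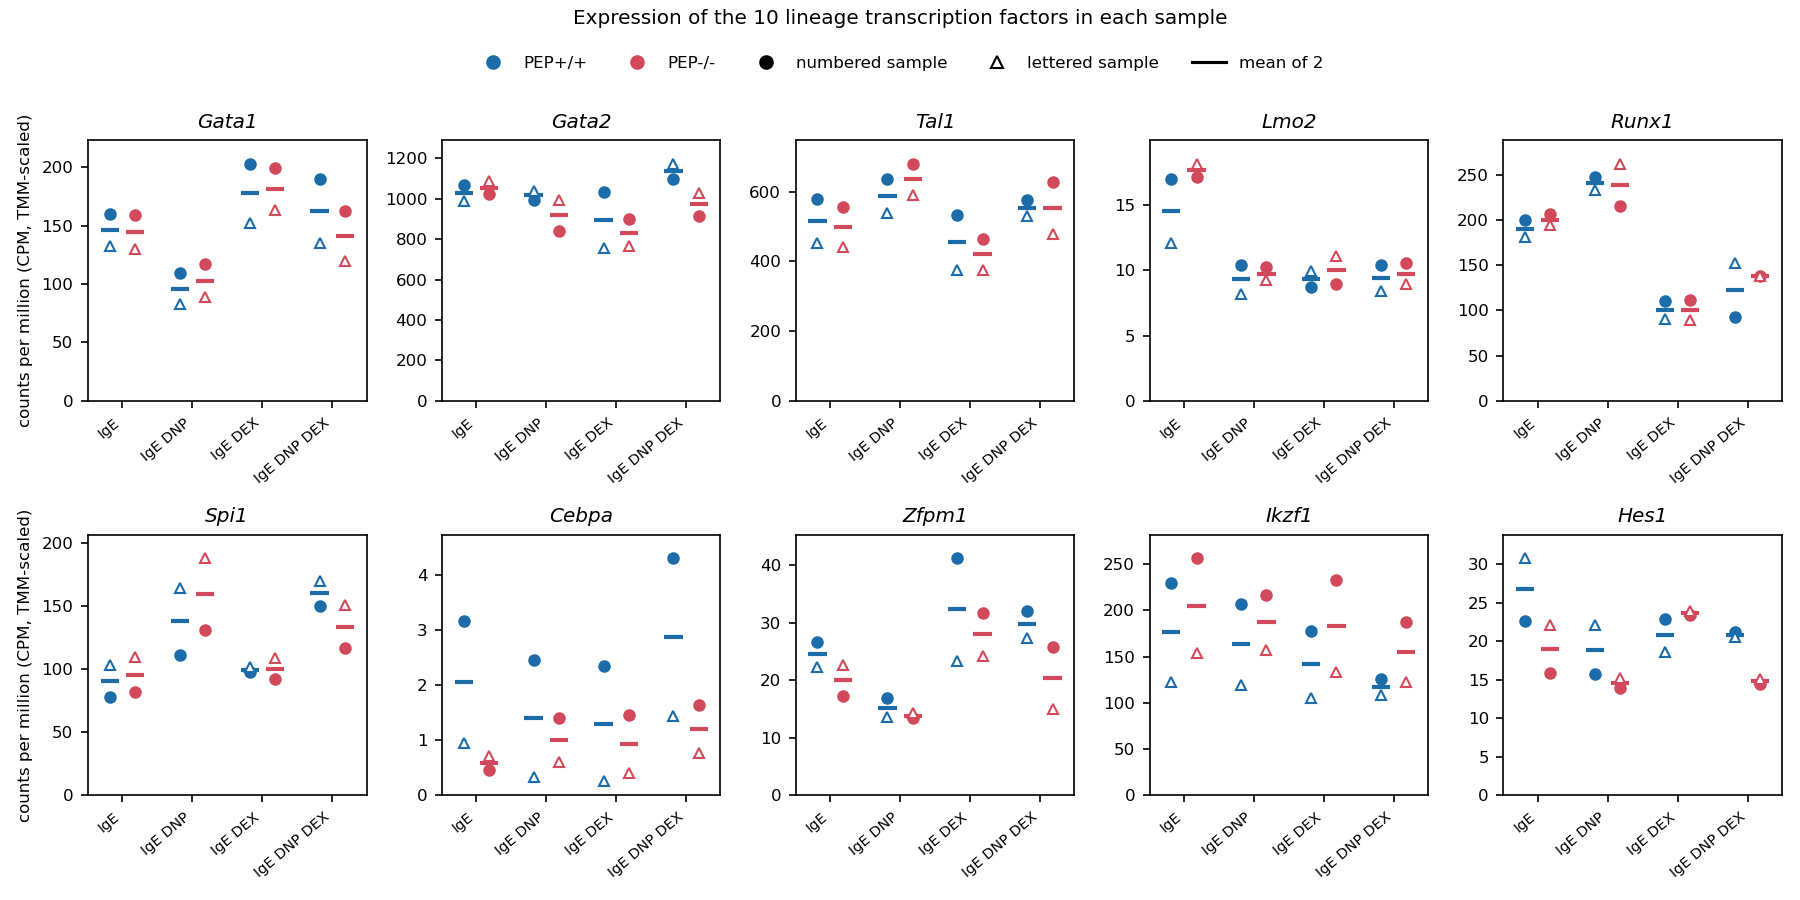
CPM of each factor in every sample (y axis from 0) by treatment (x axis); blue is PEP+/+, red PEP-/-, filled circles are numbered and open triangles lettered samples, and bars mark the mean of 2. Runx1 is low wherever DEX was given, between 89.4 and 152 CPM, Lmo2 is high with IgE alone, at 12.1 to 18.2 CPM, and in each condition the numbered sample of Ikzf1 lies above the lettered one.

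Gata2 and Tal1, the highest members per length, had no call in the main test. Gata2 ranged from 754 to 1172 CPM over the 16 samples, and its condition means differed at most by 1.36-fold. No Gata2 difference passed, with or without the block. The largest of its 4 treatment differences was +0.28 (SE 0.14, adjusted p = 0.213) for DNP under DEX. Tal1 was at 579 and 452 CPM in PEP+/+ IgE and at 556 and 442 CPM in PEP-/- IgE samples, against 636 and 540, and 680 and 591 CPM after DNP. The Tal1 ranges overlapped, but within each replicate set the DNP sample was above its IgE sample in both genotypes. Tal1 gave +0.27 (SE 0.17, adjusted p = 0.356) for DNP and +0.34 (SE 0.17, adjusted p = 0.229) for DNP under DEX. Both passed with the replicate block, at adjusted p = 0.0251 and 0.00765. Tal1 was higher in the numbered sample in 8 of 8 conditions.

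The distal window of Tal1 (chr4:115056176-115056475, plus strand, GRCm38, RefSeq) is shown because it was the only one of the 11 windows found, for 7 members, with a GATA match. It held this match 205 bases before the start and a glucocorticoid half-site 229 bases before it, each on the other strand and in capitals.
Tal1 distal: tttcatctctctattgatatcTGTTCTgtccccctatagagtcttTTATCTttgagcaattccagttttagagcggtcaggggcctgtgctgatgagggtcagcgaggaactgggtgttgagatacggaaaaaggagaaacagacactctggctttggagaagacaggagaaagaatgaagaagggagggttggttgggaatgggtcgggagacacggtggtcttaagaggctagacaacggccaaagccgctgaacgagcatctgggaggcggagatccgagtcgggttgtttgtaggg
The tests did not call Tal1 for DEX in either state. The only other half-site among the windows was in one of Ikzf1, 144 bases before the start. Ikzf1 was called for DEX in activated cells with the replicate block only (adjusted p = 0.0249, edgeR). Whether a match bears on a DEX difference was not tested.

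Ikzf1 and Hes1 had overlapping ranges between treatments. Ikzf1 ranged from 123 to 256 CPM with IgE, 120 to 217 CPM with DNP, 105 to 233 CPM with DEX and 109 to 188 CPM with both, and the 4 ranges overlapped. The numbered sample of Ikzf1 was the higher in 8 of 8 conditions, by 0.66 on the log2 scale (adjusted p = 6.56e-06 for the set in the blocked edgeR fit). DEX in activated cells gave Ikzf1 -0.37 (SE 0.30, adjusted p = 0.537), and with the block -0.35 (SE 0.11, adjusted p = 0.0249). Hes1 ranged from 15.9 to 30.8 CPM with IgE and from 13.9 to 22.2 CPM with DNP. This Hes1 difference of -0.44 (SE 0.17, 0.736-fold) did not pass (adjusted p = 0.106) and passed with the block (adjusted p = 0.0189). Cebpa stayed between 0.252 and 4.30 CPM, the numbered sample being higher in 7 of 8 conditions, and no treatment difference passed, with or without the block.

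Counted together, 2 of the 10 factors were called for DNP without DEX (Spi1 up, Lmo2 down), where 16.7% of all 13305 genes were called. For DEX without DNP 2 were called, both down (Runx1 and Lmo2), against 9.37% of all genes. For DNP under DEX 0 were called against 12.6%, with 2 factors (Spi1 and Runx1) at an unadjusted edgeR p under 0.05, and DESeq2 called 1 (Spi1). For DEX with DNP 1 was called (Runx1, down) against 10.7%, and DESeq2 called 3, with Gata1 and Zfpm1. With the replicate block 6, 3, 3 and 4 factors were called in these comparisons, where the block called 37.9%, 26.7%, 37.6% and 33.3% of all genes. The median absolute difference of the 10 factors was 0.37 for DNP without DEX, beside 0.31 over all genes, and 0.26 for DEX without DNP, beside 0.24. The sizes were therefore near those of genes in general. The DNP and DEX comparisons share samples, so their counts are not independent. The interaction of DNP with DEX called 0 factors and 0.331% of all genes, and 0 factors and 1.57% with the block, with 1 factor (Lmo2) at an unadjusted p under 0.05, and 3 (Lmo2, Gata1 and Gata2) with the block. In bulk RNA, fewer cells that express a gene and less RNA per cell cannot be told apart.

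**Figure D3:**
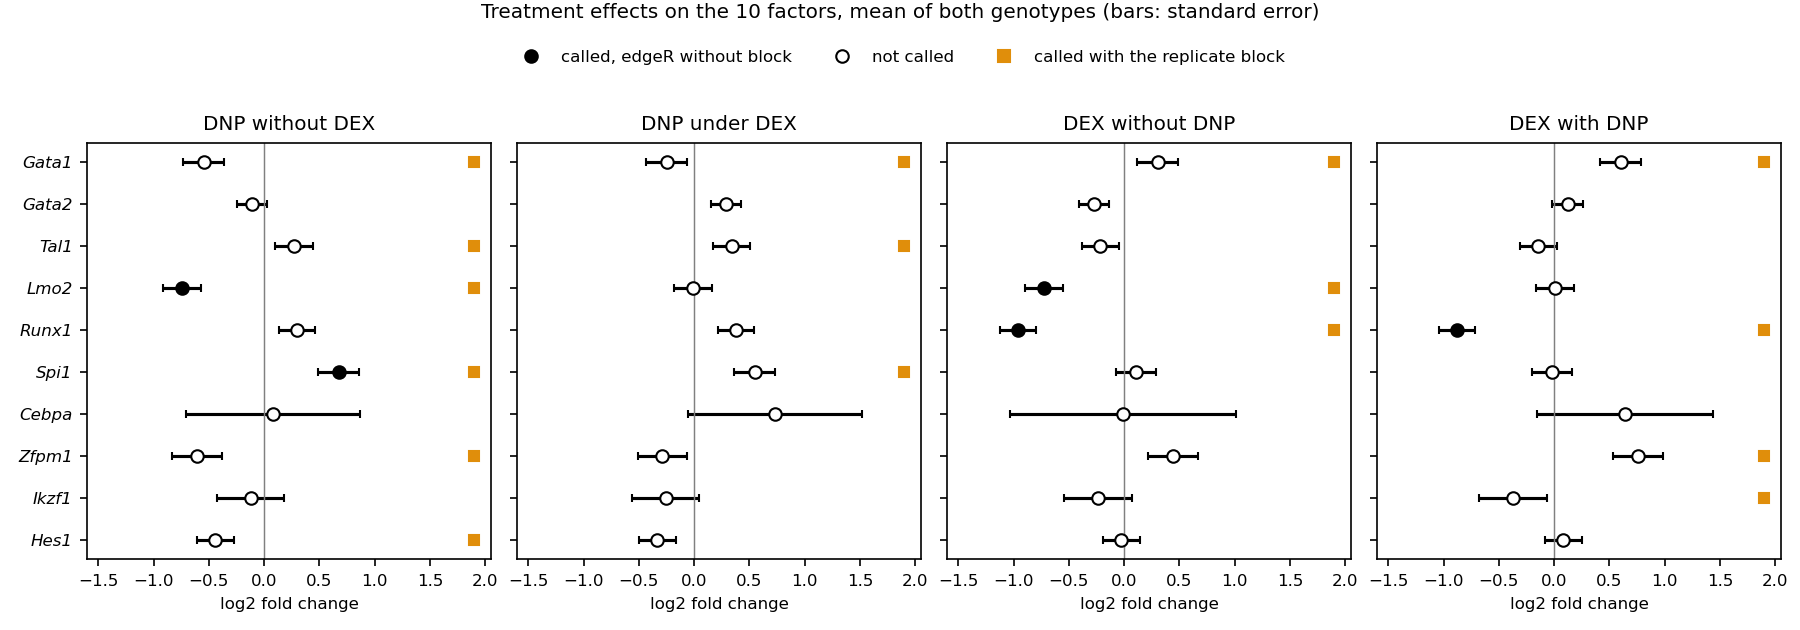
Log2 fold changes of the 10 factors in the 4 treatment comparisons (points, bars are standard errors, edgeR, mean of both genotypes); filled points passed at an adjusted p under 0.05 and squares mark calls made with the replicate block. Runx1 is left of 0 in both DEX panels, at -0.96 and -0.88, and Lmo2 is left of 0 wherever an agent was added to IgE alone.

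Without DEX, DNP lowered genes on the list of GATA-TAL1 complex partners more often than it raised them. Of the 21 genes on this list 19 were tested. The list also holds Id1, Id2 and Id3, which encode inhibitors of helix-loop-helix proteins and not partners. With DNP alone 2 rose and 8 fell, where 16.7% of all genes were called. The median was -0.37 over the list beside -0.000654 over all genes. Cbfa2t3, which encodes the corepressor ETO2, fell by 2.02 (SE 0.27, adjusted p = 0.000384) from 119 to 29.3 CPM. Lyl1, the closest relative of Tal1, fell by 1.25 (SE 0.34, adjusted p = 0.0259) from 211 to 88.7 CPM. Id3, which like Id2 encodes an inhibitor of helix-loop-helix proteins, fell by 1.71 (adjusted p = 0.0476) from under 1 CPM. Id2 rose by 1.46 (SE 0.18, adjusted p = 0.000250) from 386 to 1059 CPM. Kdm1a, which encodes the histone demethylase LSD1, rose by 1.07 (SE 0.11, adjusted p = 5.59e-05). The remaining calls were falls of Tcf3, Cbfa2t2, Gfi1b, Lmo4 and Gfi1. Ldb1, which LMO2 bridges to, gave -0.46 and did not pass in the main test (edgeR adjusted p = 0.0920). It passed with the replicate block (adjusted p = 0.00518). Under DEX, DNP gave Ldb1 -0.39 (edgeR adjusted p = 0.166), which also passed with the block (adjusted p = 0.0186).

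With DEX in resting cells 2 genes of the partner list rose and 1 fell, where 9.37% of all genes were called. The repressor gene Gfi1 rose by 1.26 (SE 0.16, adjusted p = 0.000495) from 8.89 to 21.1 CPM, Id1 rose by 2.49 from 0.212 to 1.05 CPM, and Tcf3, the E protein partner of TAL1, fell by 0.39 (adjusted p = 0.0413). With DEX in activated cells 4 rose and 1 fell, where 10.7% of all genes were called. Gfi1 rose by 1.77 (SE 0.17, adjusted p = 6.19e-05), Lyl1 by 1.19 (SE 0.34, adjusted p = 0.0440), Gfi1b by 1.07 (adjusted p = 0.0331) and Id1 by 3.04 (adjusted p = 0.00254), while Cbfa2t2 fell by 0.52 (adjusted p = 0.0434). Lyl1 and Gfi1b were thus lower with DNP and higher when DEX was added to DNP, as the means of Gata1 and Zfpm1 were. Both comparisons use the same IgE DNP samples, so the fall and the rise are not independent. Under DEX, DNP raised 3 genes of the list, the inhibitor genes Id2 (by 1.92) and Id1 (by 1.87) and Kdm1a (by 0.92). It lowered 3 (Cbfa2t3 by 1.30, Cbfa2t2 by 0.83 and Gfi1 by 0.55), where 12.6% of all genes were called. Fitted with the block, 3 genes of the list rose and 10 fell with DNP, and 3 and 6 with DNP under DEX. With DEX 4 rose and 7 fell, and in activated cells 6 and 4. In the same order the block called 37.9%, 37.6%, 26.7% and 33.3% of all genes.

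**Figure D4:**
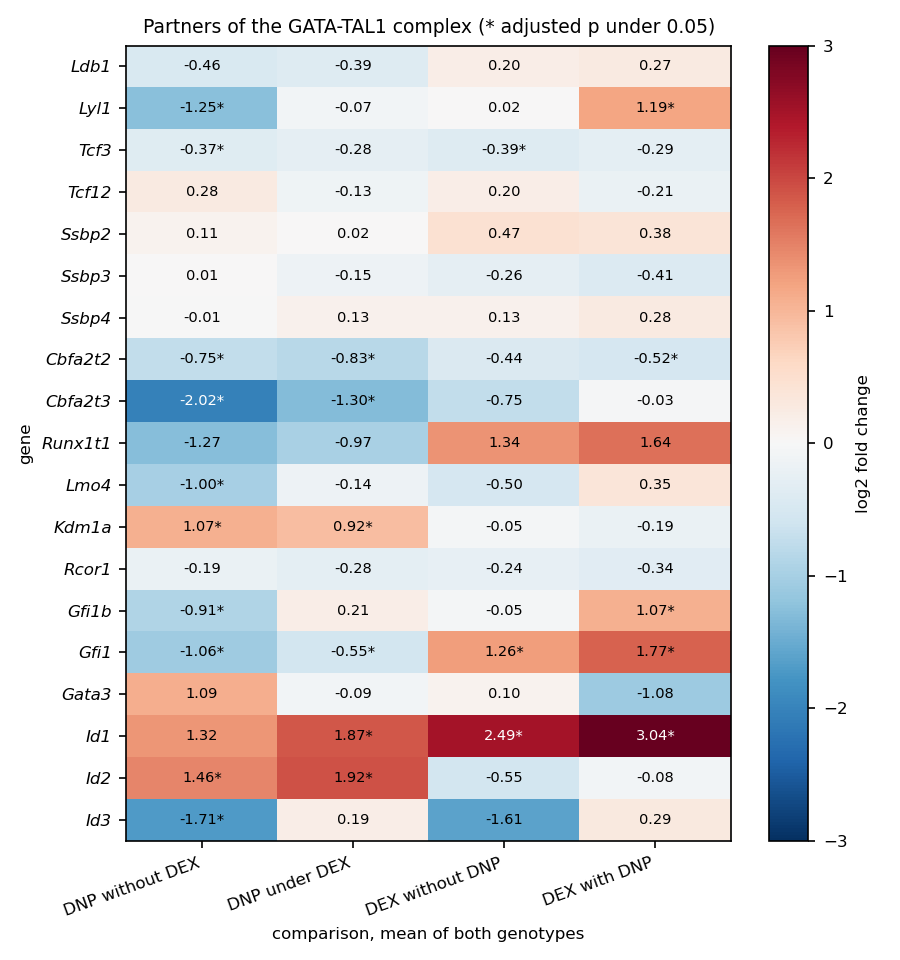
Log2 fold changes (colour and number) of the 19 tested genes of the GATA-TAL1 partner list, with the inhibitor genes Id1, Id2 and Id3 (rows), in the 4 treatment comparisons (columns). Stars mark adjusted p under 0.05 in edgeR. Cbfa2t3 is lowest at -2.02 with DNP alone, and Id1 highest at 3.04 with DEX in activated cells.

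Among the relatives of Runx1 and Spi1, only ETS genes were called in the main test. The main test called 16.7% of all genes for DNP alone and 12.6% for DNP under DEX. It called 9.37% for DEX and 10.7% for DEX in activated cells. Of 16 RUNX, ETS and MYB family genes 13 were tested. Ets1 rose by 2.46 (SE 0.46, adjusted p = 0.00365) and Ets2 by 1.74 (SE 0.15, adjusted p = 1.98e-05) with DNP alone, and by 1.85 and 1.16 under DEX, while Fli1 fell by 0.61 (adjusted p = 0.0234) with DNP alone. With DEX 1 fell in resting cells, the ETS gene Erg, by 1.31 (adjusted p = 0.0169), and 1 in activated cells, Ets2, by 0.88 (adjusted p = 0.00336). Of 12 C/EBP and Ikaros family genes and their partners 10 were tested. Cebpb, the C/EBP of inflammatory responses, rose by 2.22 (adjusted p = 0.0284) with DNP and by 2.21 (adjusted p = 0.0424) with DEX, from 2.00 to 9.46 and 9.56 CPM, while its relative Cebpa did not pass in either. With DNP alone 2 of these genes rose (Cebpb and Chd4) and 2 fell (Ikzf4 by 1.15 and Sin3a by 0.72), and Ikzf4 and Sin3a also fell under DEX, by 1.63 and 0.69. In activated cells 0 of the 10 passed for DEX. With the replicate block the RUNX, ETS and MYB list had 4 rises and 2 falls with DNP and 3 and 2 with DNP under DEX. It had 0 and 2 with DEX and 0 and 6 with DEX in activated cells. The C/EBP and Ikaros list had 3 rises and 3 falls with DNP and 4 and 3 with DNP under DEX. It had 4 and 3 with DEX and 4 and 2 with DEX in activated cells. In the same order the block called 37.9%, 37.6%, 26.7% and 33.3% of all genes.

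Genes of the Notch pathway, which acts upstream of Hes1, were called with DNP. Of its 23 genes 16 were tested, and 4 rose and 2 fell with DNP alone, where 16.7% of all genes were called. Rbpj, the DNA-binding partner of Notch, rose by 2.22 (SE 0.24, adjusted p = 8.32e-05) from 98.3 to 457 CPM. The receptor gene Notch1 rose by 1.68 (adjusted p = 0.0100). Hey2 fell by 1.11 and Hes6 by 0.96 (adjusted p = 0.0421 and 0.00367), both relatives of Hes1. Under DEX, Rbpj rose by 1.52 and the corepressor gene Tle3 by 1.00, and Hes6 fell by 0.72. DEX raised Tle1 by 0.60 (adjusted p = 0.0270) in resting and Hey2 by 1.27 (adjusted p = 0.0325) in activated cells. With the block 6 Notch pathway genes rose and 3 fell with DNP, and 7 and 5 with DNP under DEX. With DEX 5 rose and 1 fell, and in activated cells 4 and 3. In the same order the block called 37.9%, 37.6%, 26.7% and 33.3% of all genes. Of 9 other mast cell regulators 7 were tested, of which DNP raised 3, beside 16.7% of all genes. Among them were Bhlhe40, by 1.67 (SE 0.20, adjusted p = 0.000205), and Hlf, by 1.10. Under DEX, DNP raised Bhlhe40 by 1.28 and lowered Stat5b by 0.66, and DEX lowered Hlf in activated cells by 1.73. With the block 3 of these regulators rose and 2 fell with DNP, and 1 and 3 with DNP under DEX. With DEX 2 rose and 1 fell, and in activated cells 1 and 2, beside the same shares of all genes with the block. These 5 lists were chosen with earlier results of these data known, so the shares called among them are given as a description only. Over the 81 genes of these 5 lists, of which 65 were tested, 13 rose and 13 fell with DNP alone (40% of the tested genes, beside 16.7% of all genes) and 8 and 7 with DNP under DEX (23.1% beside 12.6%). With DEX 4 rose and 2 fell (9.23% beside 9.37%), and with DEX in activated cells 5 and 3 (12.3% beside 10.7%), so the shares called for DEX were near those of all genes. With the replicate block 19 rose and 20 fell with DNP alone (60% beside 37.9%), 18 and 19 with DNP under DEX (56.9% beside 37.6%), 15 and 14 with DEX (44.6% beside 26.7%) and 15 and 17 with DEX in activated cells (49.2% beside 33.3%).

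In the main test the mast cell genes themselves were called in one direction with DNP. Of 20 tested, 5 rose and 0 fell with DNP alone, where 16.7% of all genes were called. Among the 5 were the tryptase gene Tpsab1, by 3.60 (SE 0.63, adjusted p = 0.00225), and Hdc, which makes histamine, by 3.12 (SE 0.24, adjusted p = 6.77e-06). With DNP under DEX 5 rose and 0 fell, beside 12.6% of all genes. With the block 7 rose and 0 fell with DNP alone, and 8 rose and 1 fell under DEX (beside 37.9% and 37.6%). With DEX 1 rose (Hdc by 2.22) and 2 fell (Gzmb by 2.00 and Cd200r3 by 1.12), beside 9.37% of all genes. With the block 2 rose and 6 fell, beside 26.7%. Genes of other cell types also moved with DEX, in the same samples in which Runx1 fell. The stromal chemokine Cxcl12 rose by 2.71 (adjusted p = 0.00126), from 3.07 to 20.9 CPM, and it was the 1 stromal gene tested of 6. The other 5 stromal genes, Col1a1, Col1a2, Col3a1, Pdgfra and Dcn, were at most 0.113 CPM in any sample. Of the 9 erythroid genes 4 were tested, and the globin gene Hba-a1 rose by 3.65 (adjusted p = 0.00852), from 0.163 to 2.41 CPM, while the median of the 4 was -0.62 and the lowest -0.75. With the block 1 erythroid gene rose and 2 fell with DEX. In activated cells Hba-a1 rose by 4.33 and Cxcl12 by 3.05 with DEX, and Tfrc, the transferrin receptor gene of the erythroid list, fell by 1.05 (adjusted p = 0.0147). The tested basophil, megakaryocyte, macrophage, neutrophil, dendritic and lymphoid genes had 0 calls for DEX in the main test, and with the block 1 macrophage gene fell in each state and 1 and 2 dendritic genes. The part of other cells in the Runx1 result was not tested.

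No factor differed between PEP-/- and PEP+/+ cells in the main test. Averaged over treatments, 0 of 10 were called where 1.59% of all genes were, and 1 had an unadjusted edgeR p under 0.05. This was Hes1, which was lower in PEP-/- cells in 6 of 8 pairs of the same treatment and set, at a median of 15.6 CPM against 21.7 CPM. The Hes1 difference was -0.29 (SE 0.12, edgeR adjusted p = 0.284), and with the replicate block it had an adjusted p of 0.0524. With the block 4 factors (Hes1, Ikzf1, Cebpa and Zfpm1) had an unadjusted edgeR p under 0.05 for PEP loss averaged over treatments. In IgE DEX cells alone Hes1 was the other way round on average, at 23.6 CPM in PEP-/- against 20.8 CPM in PEP+/+ cells, and the test of whether the DEX effect differed by genotype did not pass (+0.68, SE 0.33, adjusted p = 1.00). Ikzf1 was higher in PEP-/- cells in 8 of 8 pairs, with +0.30 (SE 0.22, adjusted p = 0.627). This Ikzf1 difference passed with the replicate block (SE 0.08, adjusted p = 0.0165), as did 17.4% of all genes, and it was the only factor called.

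The GATA-TAL1 members were close between genotypes. The differences were -0.02 (SE 0.13) for Gata1, -0.11 (SE 0.10) for Gata2, -0.01 (SE 0.12) for Tal1 and +0.12 (SE 0.12) for Lmo2. They were +0.06 (SE 0.11) for Runx1 and +0.01 (SE 0.13) for Spi1. Zfpm1 gave -0.29 (SE 0.16, adjusted p = 0.465), and Cebpa -0.97 (SE 0.56, adjusted p = 0.510) at 0.407 to 1.64 CPM in PEP-/- against 0.252 to 4.30 CPM in PEP+/+ samples. Within the single treatments, each of 2 against 2 samples, 0 factors and 0.00752% of all genes were called. With the block 0 factors were called there too, where 1.69% of all genes were called in IgE, 1.86% in IgE DNP, 0.564% in IgE DEX and 0.0225% in IgE DNP DEX cells. In the same order 2, 0, 1 and 4 factors had an unadjusted edgeR p under 0.05 with the block. The tests of whether the genotype changed a DNP or DEX effect called 0 factors and 0% of all genes, with or without the block. Without the block 0 factors were at an unadjusted p under 0.05, and with it 1 was for DEX in resting cells (Hes1) and 1 for DEX in activated cells (Spi1). DESeq2 also called 0 factors in every comparison of the genotypes. Of the macrophage list, which summed higher in PEP-/- than in PEP+/+ cells in each treatment (33.1 to 101 against 28.8 to 55.0 CPM), 0 genes were called, and 3 rose with the block. Of the 4 erythroid genes tested, 2 were lower in PEP-/- cells, with a median of -0.77 over the 4. Tfrc was lower by a log2 difference of -0.89 (SE 0.16, adjusted p = 0.0238), at 42.8 against 75.7 CPM, and the globin gene Hbb-bt by -1.25 (SE 0.21, adjusted p = 0.0171), at 1.61 against 3.69 CPM. With the block 2 erythroid genes were called lower as well. The marker lists of the remaining other cell types had 0 calls averaged over treatments, with or without the block. Of the 20 mast cell genes 0 were called, and with the block 5 rose and 1 fell, where 17.4% of all genes were called. Of the 65 pathway genes 0 were called between genotypes, and with the block 11 rose, which was 16.9% beside 17.4% of all genes.

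**Figure D5:**
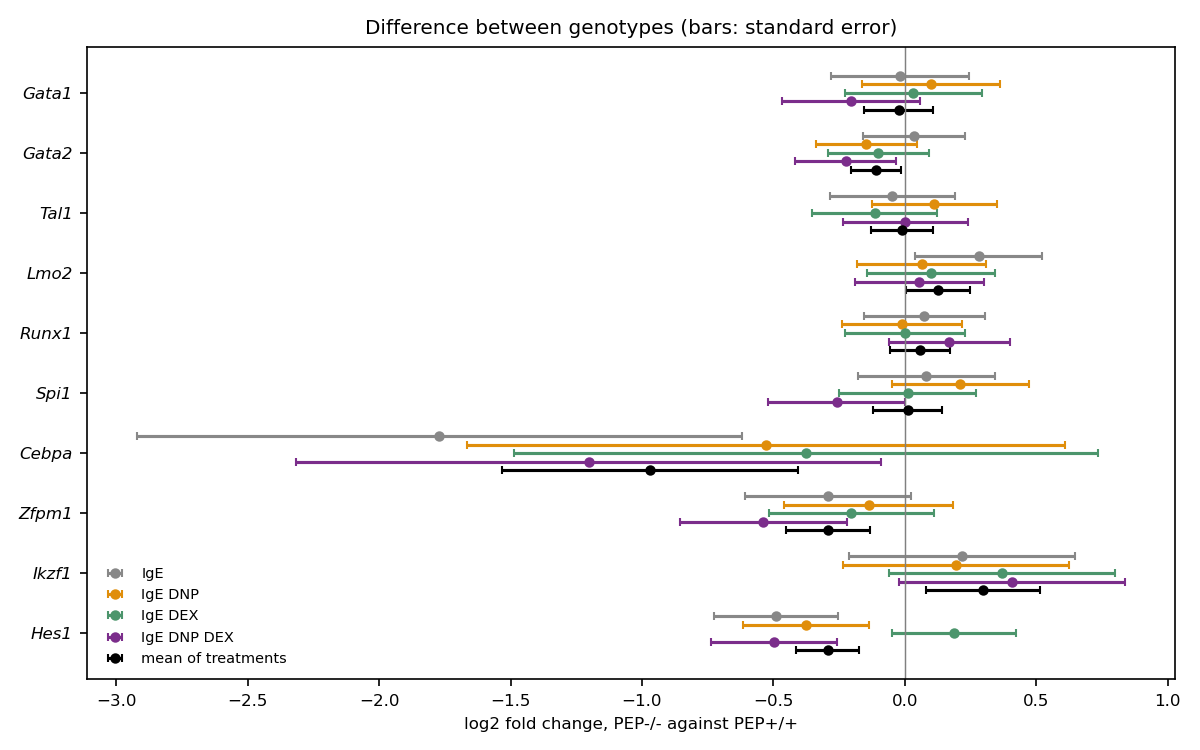
Log2 fold change of each factor in PEP-/- against PEP+/+ cells (x axis, bars are standard errors) in each of the 4 treatments (2 against 2 samples) and as their mean (black). The black points lie between -0.29 and +0.30 except for Cebpa, at -0.97 with the widest bars.

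The genes whose log2 CPM followed a factor most closely over the 16 samples differed in how close they came. Ikzf1 was followed by Scamp1 (Pearson r = 0.987), Tns3 and Atp11b, Runx1 by Plxnd1 (r = 0.977), Csf2rb2 and Plekhg3, and Tal1 by Cdc42 (r = 0.972), Ccnd2 and Rab8b. Csf2rb2 encodes a receptor chain for IL3, which was in the medium. Gata1 was followed by Armc10 (r = 0.969), Oxa1l and Tceanc2, and Spi1 by Lcat (r = 0.960), 9930022D16Rik and Irf2bp2. The closest genes were Gnaz to Lmo2 (r = 0.909), Trim27 to Hes1 (r = 0.909), Ptger3 to Zfpm1 (r = 0.888), Ubxn8 to Cebpa (r = 0.881) and Traf4 to Gata2 (r = 0.707). These values describe samples that share treatments and replicate sets, and the 3 closest of all tested genes were taken for each factor.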

How the data were processed

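The deposited files hold whole-number read counts per Ensembl gene for 16 samples, made by the authors with TopHat2 on GRCm38 and HTSeq from a stranded mRNA kit, where the strand setting of HTSeq is not given in the sources used here. The authors' own comparisons used DESeq2. Of all alignments per sample, 4.69 to 11.0% lay on no gene, 1.90 to 2.50% were ambiguous and 21.5 to 37.8% were not unique, and these 5 rows per file stayed out of library sizes and tests. Reads on genes came to a median of 12814043.5 a sample. The labels and the paper give different IgE doses, and that of the labels was used. Of the 39179 gene IDs, 37607 were found in GENCODE M21 (GRCm38), the source of symbols, positions and exon lengths.

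Counts were tested with edgeR 4.0.16 (R 4.3.3), with TMM scaling, its filter on low counts (minimum count 10), 1 mean per condition over all 16 samples (8 residual degrees of freedom, common biological coefficient of variation 0.312) and the quasi-likelihood test. P-values were Benjamini-Hochberg adjusted over 13305 genes, with 0.05 as the threshold, and treatment effects were averaged over both genotypes. Each condition had 1 numbered and 1 lettered sample. Deviations from the condition means correlated between samples of the same set over all 28 pairs of conditions (0.453 to 0.799, median 0.718), so the sets, taken from the sample titles, pair the samples, and the fit with the set as a replicate block was run beside the main one. Replicates differed by more than counting noise in each condition (chi-square divided by its degrees of freedom at least 50.0). DESeq2 1.42.0, its size factors, other filters, only the groups compared and each library left out were the alternatives. The scripts were tested on simulated data.

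The factors and gene lists were chosen with earlier results of these data known. Named were the 10 factors in every comparison, Ptpn22, up to 2 of the largest rises and falls per list and comparison, and the 3 genes closest to each factor by Pearson r of log2 CPM (prior count 2). Further called genes named beside these were chosen after their values were seen. Promoter windows were taken from RefSeq for 7 of the 10 factors. None was given for Lmo2, Spi1 and Hes1.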

Additional observations from a re-analysis of the deposited data

Results flagged for a closer look

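Spi1 moved in opposite directions with DEX in the activated cells of the 2 genotypes. In PEP+/+ cells Spi1 was at 111 and 164 CPM with DNP and at 150 and 170 CPM with DNP and DEX, higher within both replicate sets. In PEP-/- cells it was at 131 and 188 CPM with DNP and at 117 and 151 CPM with DNP and DEX, lower within both sets. The mean log2 differences within sets differed between the genotypes by -0.48. The fitted DEX difference of Spi1 was +0.22 (SE 0.26) in PEP+/+ and -0.26 (SE 0.26) in PEP-/- cells. The edgeR interaction gave -0.47 (SE 0.37, adjusted p = 1.00), so the difference did not pass that test.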

How the results depend on the processing

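Alternatives changed how many of the 10 factors were called. With no filter on low counts 1 was called for DNP without DEX, 1 for DEX without DNP and 3 for DEX with DNP, and with only the compared groups fitted 1 for DNP and 1 for DEX without DNP. DESeq2 called 1 for DNP under DEX and 3 for DEX with DNP, and a minimum of 10 counts in every sample called 3 for DEX with DNP. With the replicate block 6 were called for DNP without DEX, 3 for DNP under DEX, 4 for DEX with DNP and 1 for PEP loss over all treatments, and the calls it changed are given beside each factor in the report, no other call of a factor being changed. The replicate block called 5042 genes for DNP without DEX against 2216, 3548 for DEX without DNP against 1247, 5007 for DNP under DEX against 1678, 4429 for DEX with DNP against 1418, 209 against 44 for the interaction and 2310 against 212 for PEP loss. DESeq2 called 101 genes for the interaction and 697 for PEP loss, no filter 107 and 472, and the fit of only the compared groups 953 for DNP under DEX and 805 for DEX with DNP. Leaving out 1 library gave 1390 to 2251 genes for DNP without DEX, 927 to 1604 for DNP under DEX, 852 to 1317 for DEX with DNP, 12 to 27 for the interaction and 57 to 203 for PEP loss. With 1 library left out, 0 to 2 factors were called for DNP without DEX, 1 to 2 for DEX without DNP, 0 to 1 for DNP under DEX and 1 to 2 for DEX with DNP. The count for DNP without DEX was 0 without PEP+/+ IgE replicate 1, PEP+/+ IgE DNP replicate 2 or PEP-/- IgE DNP replicate 2. In DEX with DNP, Gata1 (+0.73) was called without PEP+/+ IgE DNP DEX replicate 2, and Zfpm1 without PEP-/- IgE DNP DEX replicate 2 (+0.94) or either PEP+/+ IgE DEX sample (+0.76). Directions turned for the differences below, none of them called in either fit. Cebpa gave -0.0814 for DNP with the replicate block and +0.00459 for DEX, and Spi1 +0.0106 for DEX with DNP, with only the compared groups. Leaving out 1 library moved DNP without DEX between -0.95 and 0.64 for Cebpa and between -0.36 and 0.14 for Ikzf1. It moved DEX without DNP between -1.15 and 0.55 for Cebpa, between -0.47 and 0.0271 for Ikzf1 and between -0.13 and 0.10 for Hes1. It moved DNP under DEX for Lmo2 between -0.0875 and 0.0765. It moved DEX with DNP between -0.0545 and 0.12 for Lmo2, between -0.13 and 0.15 for Spi1 and between -0.0139 and 0.24 for Hes1. It moved the interaction between -0.0492 and 0.21 for Tal1, -0.0930 and 0.27 for Runx1, -0.24 and 0.0584 for Spi1, -0.40 and 0.12 for Ikzf1, and -0.0209 and 0.27 for Hes1. It moved PEP loss between -0.0835 and 0.0387 for Gata1, -0.0700 and 0.0582 for Tal1, -0.0238 and 0.16 for Runx1, and -0.0612 and 0.0855 for Spi1. The cause of these changes was not tested. With DESeq2 size factors in edgeR, all 60 differences kept direction and call.

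With 2 samples a condition, differences near the threshold depended on single libraries. Cebpa had 3 to 43 reads a sample, differed between the replicate sets by -1.61 on the log2 scale (lettered minus numbered) and did not pass the filter of 10 counts in every sample. The standard errors of its 4 treatment differences were 0.79 to 1.02 in the main test and 0.41 to 0.44 with the replicate block. The part of depth in these standard errors was not tested.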
